A study of Mus musculus with 12 samples.

Results

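The metallothioneins Mt1 and Mt2, their transcription factor gene Mtf1 and the zinc transporter genes Slc30a1 (ZnT1) and Slc39a14 (ZIP14) were followed in pancreatic stellate cells (PSCs). They are 5 of the 39179 genes in the count table, and all 5 were found in it by symbol. The genes were chosen on their levels in these 12 libraries, so their own levels and fold changes are described without a test. The tests below are of other genes, of zinc and copper handling and of related responses. Their lists, too, were chosen with earlier results of these data known. PSCs had been cultured for 72 h alone (mono-PSCs), with PCC tumour cells (2W-PSCs) or with PCCs and macrophages (MØs, 3W-PSCs), with 4 libraries each, so that mono-PSCs were set against co-cultured PSCs, and 2W-PSCs against PSCs of cultures that also held MØs. The study plated the same total number of cells in each culture, so a further cell type left fewer cells of at least 1 other type, which cannot be told apart from the presence of the added cells. The labels give the strain C57BL/6 for every library. All cultures held the same mCherry-labelled PSCs, which the study lists as an SV40-immortalised mouse line that is a single clone, in minimal medium. The PCCs were an EGFP-labelled mouse pancreatic cancer line and the MØs the TagBFP-labelled mouse macrophage line RAW264.7. PSCs were sorted by flow cytometry as mCherry-positive cells without EGFP or TagBFP.

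Metallothioneins are small cysteine-rich proteins that bind zinc and copper in the cytosol. Free zinc activates MTF1, a zinc finger factor that binds metal response elements (MREs) in the promoters of metallothionein genes and of Slc30a1, whose product carries zinc out of the cell. Slc39a14 encodes an importer of zinc, and also of iron and manganese, best known from hepatocytes, where interleukin 6 raises its level in the acute phase response.

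The annotated gene Mt2 (ENSMUSG00000031762) lies on chromosome 8 from 94172664 to 94173568 and Mt1 (ENSMUSG00000031765) from 94179082 to 94180327 (GRCm38, both on the plus strand), so 5513 bases separate the end of Mt2 from the start of Mt1. Mtf1 (ENSMUSG00000028890) lies on chromosome 4 from 124802104 to 124849800 and Slc30a1 (ENSMUSG00000037434) on chromosome 1 from 191906767 to 191913247, both on the plus strand. Slc39a14 (ENSMUSG00000022094) lies on chromosome 14 from 70303469 to 70351425 on the minus strand. Windows of 75 bases were taken, here and below, from the last 500 bases of each annotated transcript. None of the windows of these 5 genes was shared with another gene's transcripts. Exons of Mtf1 overlapped those of 1110065P20Rik over 721 bases and exons of Slc30a1 those of 1700034H15Rik over 468 bases, in both cases on the opposite strand. Exons of Mt2 overlapped the antisense gene Gm45774, which is no row of the count table, over 432 bases. The strand setting of the counting was not given in the sources used here, so reads from these stretches could not be assigned to a strand.

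The promoters of the metallothionein genes and of Slc30a1 are shown because the MRE, the element through which MTF1 acts, can be read in them. Each stretch, on the plus strand and in the RefSeq annotation of GRCm38.p6, runs from 250 bases before the annotated transcription start to 50 bases after it, and capitals mark every match to the MRE core, TGCACNC or TGCGCNC, on either strand. The stretch of Mt1 is chr8:94178839-94179138, that of Mt2 is chr8:94172368-94172667 and that of Slc30a1 is chr1:191906531-191906830.
Mt1: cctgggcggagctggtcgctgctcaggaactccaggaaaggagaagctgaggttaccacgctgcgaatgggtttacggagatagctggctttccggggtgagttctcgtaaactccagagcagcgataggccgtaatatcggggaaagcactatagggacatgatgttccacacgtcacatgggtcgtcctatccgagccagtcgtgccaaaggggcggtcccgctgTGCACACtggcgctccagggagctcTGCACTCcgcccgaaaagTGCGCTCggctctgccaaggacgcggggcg
Mt2: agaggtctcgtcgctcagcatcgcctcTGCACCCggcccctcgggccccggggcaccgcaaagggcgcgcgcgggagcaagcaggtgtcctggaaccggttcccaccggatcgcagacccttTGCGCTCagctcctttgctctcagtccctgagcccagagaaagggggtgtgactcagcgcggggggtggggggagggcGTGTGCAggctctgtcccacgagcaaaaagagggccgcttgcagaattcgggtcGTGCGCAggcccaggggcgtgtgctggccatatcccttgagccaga
Slc30a1: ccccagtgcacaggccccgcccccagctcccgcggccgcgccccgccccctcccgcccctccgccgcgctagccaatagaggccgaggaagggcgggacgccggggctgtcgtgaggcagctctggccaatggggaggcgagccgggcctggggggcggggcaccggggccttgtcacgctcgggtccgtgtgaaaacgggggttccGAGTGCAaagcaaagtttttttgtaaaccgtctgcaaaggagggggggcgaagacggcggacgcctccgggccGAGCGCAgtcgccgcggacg

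Mt1 held 3 matches to the core, Mt2 held 4 and Slc30a1 held 2, whereas the Mtf1 promoter on chromosome 4 held 0. At least 1 match was present in 25.7% of the 32851 promoters in the RefSeq table, at least 3 in 1.97% and at least 4 in 0.5175%. The 3 matches of Mt1 lay within 23 bases before and 27 bases after the annotated start, all on the plus strand. Those of Mt2 were spread from 223 bases before to 11 bases after the start, with 2 on each strand, and both matches of Slc30a1 were on the minus strand. An antioxidant response element core, TGACNNNGC on either strand, was found once in the Mt2 promoter and once in that of Slc30a1, and in 12.4% of all promoters. No match was found in these 4 promoters to the STAT consensus TTCNNNGAA (8.30% of all promoters), the E-box CACGTG (7.15%) or the NF-kB consensus (4.51%), and neither the MRE core nor the antioxidant core overlapped another of these motifs there. The MRE core was also present in 12 of the 21 other metallothionein, ZnT and ZIP genes with a promoter in the table, and 3 or more matches were found in 2 of them, Slc30a4 and Slc30a10. These matches describe the letters of 300-base windows and not binding. The RefSeq starts of these 4 promoters differ from the gene starts given above, and matches around other starts were not read.

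**Figure D1:**
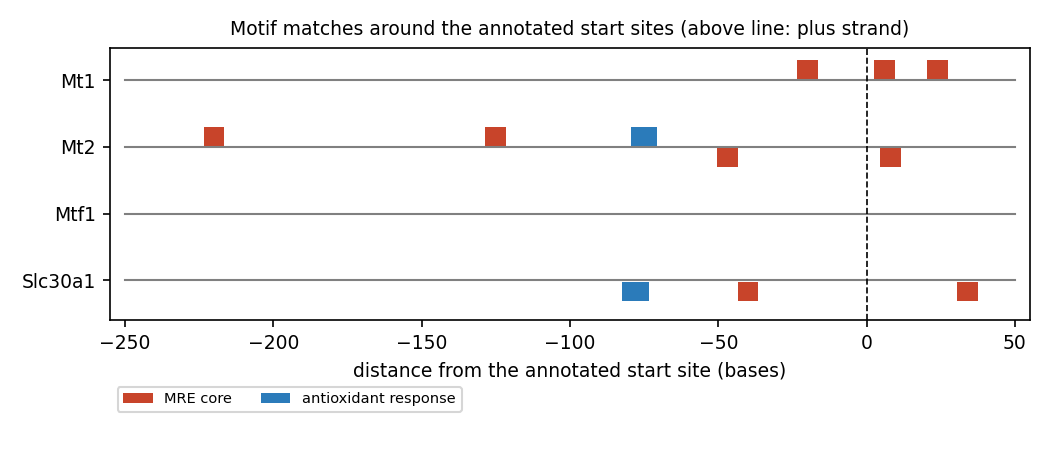
Positions of MRE core and antioxidant response core matches (boxes, above the line for the plus strand and below it for the minus strand) against the distance in bases from the annotated start of Mt1, Mt2, Mtf1 and Slc30a1. Mt2 carries 4 MRE matches over the whole window, Mt1 carries 3 around the start and Mtf1 none.

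Mono-PSC libraries held 5286963 to 8093368 counts, 2W-PSC libraries 4561817 to 6907711 and 3W-PSC libraries 7205488 to 8061367. One library, 2W replicate 2, stood apart from its group, with a Spearman's rho across genes of 0.858 to 0.920 with the other 2W libraries against 0.948 to 0.987 for the other 15 pairs within a culture, so the fold changes of the 5 genes and the calls that rest on it are also given without it. Levels are CPM, counts scaled to a common library size, after TMM scaling over the 12 libraries. Because QuantSeq tags come from the 3′ ends of transcripts, CPM was not divided by gene length. Of the fibroblast marker list, 13, 13 and 12 of 13 genes had more than 3 counts in some library of mono-, 2W- and 3W-PSCs, with sums of 9296 to 12821 CPM, 13196 to 20319 CPM and 7309 to 8856 CPM. Of 16 macrophage markers 4, 6 and 15 passed the same limit, with sums of 2.26 to 8.13 CPM, 4.48 to 10.8 CPM and 12.2 to 53.2 CPM. Emr1 was at 0 in all cultures, and Ptprc, Spi1 and Tyrobp were at 0 in mono- and 2W-PSCs. Of 12 epithelial markers 3, 8 and 8 passed, with sums in the same order of 1.20 to 3.30, 75.6 to 148 and 54.8 to 92.7 CPM, and Epcam and Esrp1 were at 0 in 2W-PSCs. The sums of 2W-PSCs came mostly from Krt18, with means of 0.095 CPM in mono-PSCs and 37.3 CPM in 2W-PSCs, Krt7 (0.27 and 20.9 CPM), Cdh1 (0.59 and 18.4 CPM) and Krt19 (0.46 and 17.4 CPM). The part of other cells in the 2W libraries was not tested.

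Mt2 had its lowest levels in 2W-PSCs and its highest in 3W-PSCs, and the 3 cultures did not overlap. Its level was 132, 187, 113 and 107 CPM in mono-PSCs (replicates 1 to 4), with a mean of 135 ± 36.5 CPM (SD, n = 4). In 2W-PSCs it was 56.6, 42.7, 68.7 and 61.5 CPM, with a mean of 57.4 ± 10.97 CPM (SD, n = 4). In 3W-PSCs it was 596, 710, 340 and 346 CPM, with a mean of 498 ± 185 CPM (SD, n = 4). Replicates 1 and 2 of 3W-PSCs lay well above replicates 3 and 4, yet the lowest 3W library was above the highest mono library. The log2 fold change was 1.88 (SE 0.24) between 3W- and mono-PSCs, which is 3.69-fold. Between 2W- and mono-PSCs it was -1.21 (SE 0.23), and the level in 2W-PSCs was 2.31-fold lower. Between 3W- and 2W-PSCs it was 3.11 (SE 0.28), which is 8.64-fold and the 72nd highest of the 11513 genes tested in that comparison. Without 2W replicate 2 the last 2 values were -1.10 and 2.99. In sorted bulk PSCs, a change in the RNA of each cell and a change in the share of cells of a kind cannot be told apart.

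Mt1 was among the most abundant transcripts of these PSCs and moved less than its neighbour. It ranked 98th of 39179 genes by mean CPM in mono-PSCs, 214th in 2W-PSCs and 104th in 3W-PSCs, whereas Mt2 ranked 1252nd, 3077th and 204th. The level of Mt1 was 718, 1210, 859 and 891 CPM in mono-PSCs, with a mean of 919 ± 207 CPM (SD, n = 4). In 2W-PSCs it was 402, 643, 521 and 608 CPM, with a mean of 544 ± 107 CPM (SD, n = 4). In 3W-PSCs it was 806, 894, 646 and 661 CPM, with a mean of 752 ± 119 CPM (SD, n = 4). All 4 libraries of 2W-PSCs lay below all of mono- and 3W-PSCs, although the highest 2W library, at 643 CPM, and the lowest 3W library, at 646 CPM, were close, and mono- and 3W-PSCs overlapped. The log2 fold change of Mt1 was -0.73 (SE 0.23) between 2W- and mono-PSCs and -0.83 without 2W replicate 2. It was 0.47 (SE 0.19) between 3W- and 2W-PSCs, and 0.55 without that library. Between 3W- and mono-PSCs, where Mt2 was higher, Mt1 had a log2 fold change of -0.29 (SE 0.18).

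**Figure D2:**
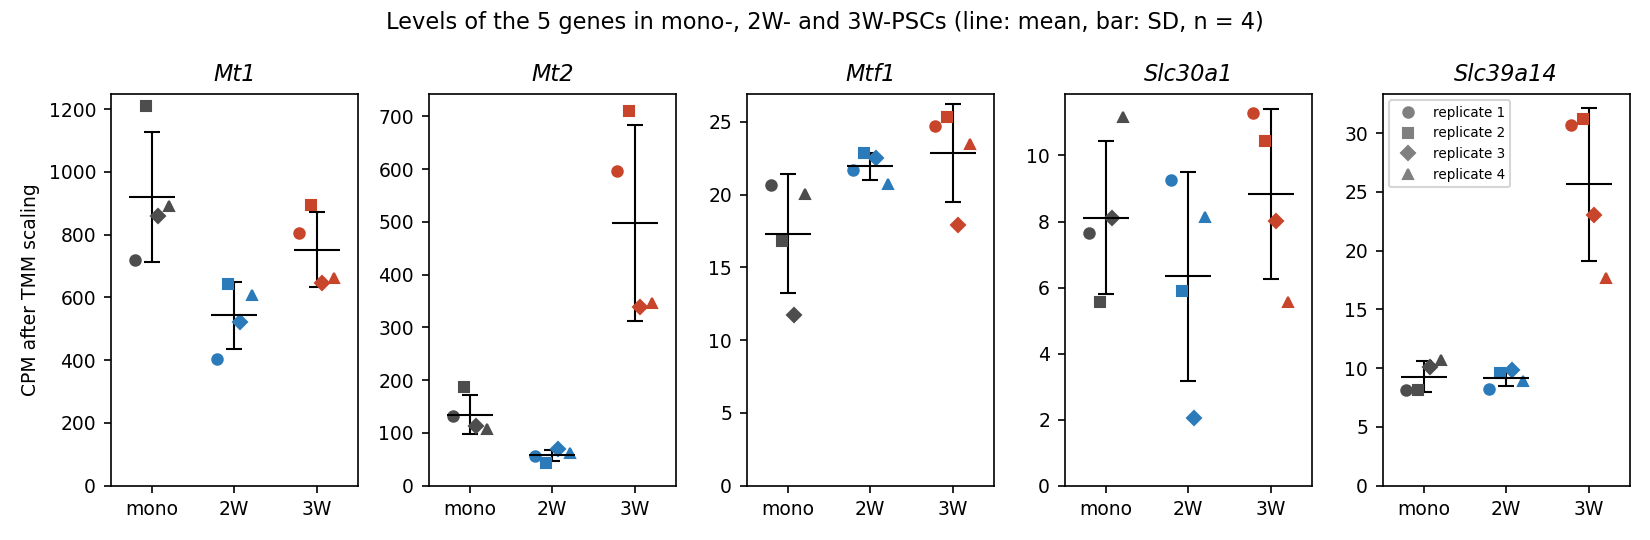
CPM after TMM scaling (each vertical axis from 0) of Mt1, Mt2, Mtf1, Slc30a1 and Slc39a14 in mono-, 2W- and 3W-PSCs; symbols are libraries by replicate number, the line is the mean and the bar 1 SD (n = 4). Mt2 reached 340 to 710 CPM in 3W-PSCs and Slc39a14 17.6 to 31.2 CPM, in both cases above every library of the other cultures, while Slc30a1 overlapped in all of them.

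The balance of the 2 metallothioneins also separated 3W-PSCs from the other cultures. The ratio of Mt1 to Mt2 counts, which does not depend on library scaling, was 5.44, 6.46, 7.62 and 8.30 in mono-PSCs, with a mean of 6.96 ± 1.26 (SD, n = 4). In 2W-PSCs it was 7.11, 15.0, 7.58 and 9.89, with a mean of 9.90 ± 3.63 (SD, n = 4), and the value of 15.0 was that of 2W replicate 2. In 3W-PSCs it was 1.35, 1.26, 1.90 and 1.91, with a mean of 1.61 ± 0.35 (SD, n = 4). All 3W libraries lay below all others, whereas mono- and 2W-PSCs overlapped. The summed level of both genes lay at 851 to 1397 CPM in the mono libraries, 459 to 685 CPM in the 2W libraries and 986 to 1604 CPM in the 3W libraries, so the sum in 3W-PSCs overlapped that of mono-PSCs and the sum in 2W-PSCs was below both. Across the 12 libraries the log2 levels of the pair had a Pearson's r of 0.48, and their deviations from the culture means had an r of 0.48 as well, or 0.67 over the 11 libraries without 2W replicate 2. Both genes of a library share its depth and scaling.

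**Figure D3:**
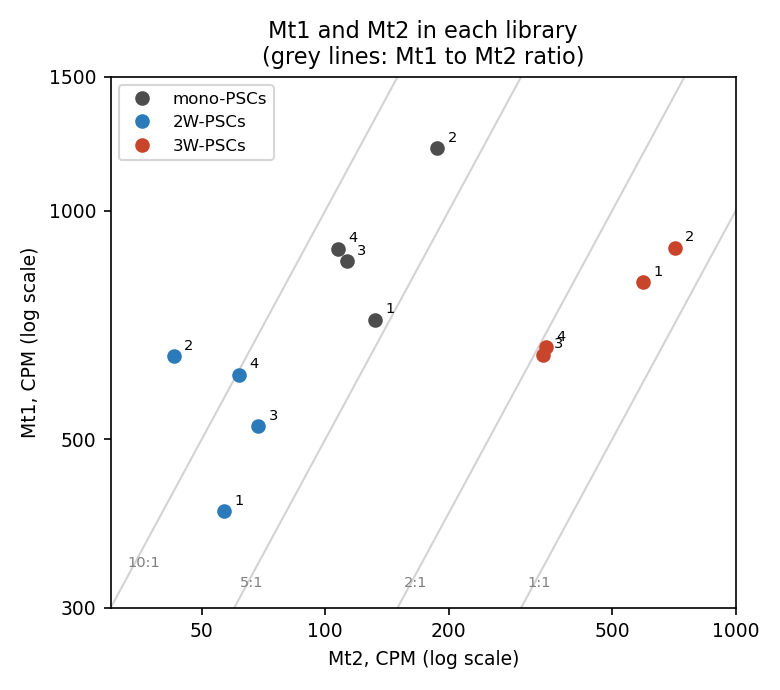
Mt1 against Mt2 in CPM, both on log axes, with 1 point per library, numbered by replicate, and grey lines of equal Mt1 to Mt2 ratio. The 4 libraries of 3W-PSCs lie between the 1:1 and 2:1 lines, and the 8 others lie above the 5:1 line.

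Mtf1, the gene of the zinc-sensing factor, was low and nearly even. Its level was 20.7, 16.8, 11.7 and 20.1 CPM in mono-PSCs, with a mean of 17.3 ± 4.11 CPM (SD, n = 4). In 2W-PSCs it was 21.7, 22.8, 22.5 and 20.8 CPM, with a mean of 21.97 ± 0.93 CPM (SD, n = 4). In 3W-PSCs it was 24.7, 25.3, 17.9 and 23.5 CPM, with a mean of 22.9 ± 3.37 CPM (SD, n = 4). The 2W libraries lay just above all mono libraries, by 20.8 against 20.7 CPM at the nearest, and 3W-PSCs overlapped both other cultures. The log2 fold changes were 0.36 (SE 0.25) between 2W- and mono-PSCs, 0.39 (SE 0.22) between 3W- and mono-PSCs and 0.056 (SE 0.19) between 3W- and 2W-PSCs, from 65 to 218 counts per library. Without 2W replicate 2 the first and the last were 0.33 and 0.072.

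Slc30a1, the exporter of the plasma membrane, was the least abundant of the 5 genes in mono-, 2W- and 3W-PSCs, with 13 to 93 counts per library. Mono-PSCs had 7.65, 5.55, 8.1 and 11.2 CPM in replicates 1 to 4. The 2W libraries had 9.25, 5.89, 2.06 and 8.15 CPM, and the 3W libraries 11.3, 10.4, 8.01 and 5.58 CPM. The means were 8.12 ± 2.32, 6.34 ± 3.17 and 8.83 ± 2.58 CPM (SD, n = 4 each), and all cultures overlapped. The log2 fold change was 0.10 (SE 0.31) between 3W- and mono-PSCs, -0.34 (SE 0.44) between 2W- and mono-PSCs and 0.47 (SE 0.42) between 3W- and 2W-PSCs, and the last 2 values were -0.32 and 0.44 without 2W replicate 2. The means of any 2 cultures differed by less than the SD of either, and the low 2W value of 2.06 CPM rested on 13 counts. Mt2 and Slc30a1, which both carry MRE matches in the promoters above, had an r of 0.35 across the 12 libraries and of -0.055 in the deviations from the culture means.

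Slc39a14, the importer, was higher in 3W-PSCs than in both other cultures. Its level was 8.17, 8.13, 10.1 and 10.7 CPM in mono-PSCs, with a mean of 9.27 ± 1.32 CPM (SD, n = 4). In 2W-PSCs it was 8.27, 9.58, 9.84 and 8.94 CPM, with a mean of 9.16 ± 0.70 CPM (SD, n = 4). In 3W-PSCs it was 30.7, 31.2, 23.0 and 17.6 CPM, with a mean of 25.6 ± 6.52 CPM (SD, n = 4). Every 3W library lay above every other library, and the 2W libraries lay within the range of the mono libraries. The log2 fold change was 1.46 (SE 0.24) between 3W- and mono-PSCs, which is 2.74-fold, and 1.48 (SE 0.24) between 3W- and 2W-PSCs, which is 2.80-fold. Between 2W- and mono-PSCs it was 0.0017 (SE 0.28). Without 2W replicate 2 the last 2 values were 1.504 and -0.032.

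The 5 genes thus fell into different orders of culture. Mt1 and Mt2 had their lowest means in 2W-PSCs, with 3W-PSCs highest for Mt2 and mono-PSCs highest for Mt1, while Slc39a14 was as low in 2W- as in mono-PSCs. The libraries of 2 cultures did not overlap for 2 of the 5 genes between 3W- and mono-PSCs, for 3 between 2W- and mono-PSCs and for 3 between 3W- and 2W-PSCs. Over all genes tested, 26% of 11551, 5.75% of 11199 and 21.3% of 11513 did not overlap in these comparisons, which share libraries, and since the genes were chosen on these values nothing is read from their count. The median log2 fold changes of the 5 genes were 0.39, -0.34 and 0.47, against 0.012, 0.020 and 0.0025 over all genes tested. Mt2 and Slc39a14 had an r of 0.87 across the 12 libraries and of 0.40 in the deviations from the culture means. Within 3W-PSCs both were highest in replicates 1 and 2. The macrophage marker sums of the 3W libraries were 16.9, 12.2, 15.4 and 53.2 CPM for replicates 1 to 4. The epithelial marker sums were 78.8, 61.3, 54.8 and 92.7 CPM. The share of Mt2 and Slc39a14 counts that came from other cells was not tested.

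The remaining metallothioneins and transporters were tested across all genes with edgeR's quasi-likelihood test, and a gene was called at a Benjamini-Hochberg adjusted p under 0.05. Mt3, the metallothionein of neurons, had 1 count and Mt4, that of stratified epithelia, 2 counts in the 12 libraries together. Of the other 9 ZnT genes 5 had enough counts to be tested, namely Slc30a4, Slc30a5, Slc30a6, Slc30a7 and Slc30a9, and none was called in any of the 3 comparisons by edgeR or by DESeq2. By edgeR 13.4% of all genes tested were higher and 13% lower between 3W- and mono-PSCs. The shares were 0.839% and 0.152% between 2W- and mono-PSCs and 5.73% and 4.95% between 3W- and 2W-PSCs. For 5 genes 0 calls is near these shares and is no result about the family. In edgeR's test, unadjusted p-values under 0.05 were reached by 2 of the 5 ZnT genes between 3W- and mono-PSCs, by 0 between 2W- and mono-PSCs and by 1 between 3W- and 2W-PSCs. Slc30a5 and Slc30a7, which load zinc into the secretory pathway, had log2 fold changes of 0.61 (SE 0.26, 95% interval 0.056 to 1.16) and 0.61 (SE 0.27, 0.046 to 1.18) between 3W- and mono-PSCs, with edgeR adjusted p = 0.0968 and 0.103. Between 3W- and 2W-PSCs Slc30a7 had a log2 fold change of 0.67 (SE 0.24, edgeR adjusted p = 0.102), and 0.51 without 2W replicate 2. The highest ZnT levels were those of Slc30a4, with means of 56.8, 41.4 and 56.8 CPM in mono-, 2W- and 3W-PSCs, and Slc30a9, with means of 47.3, 38.1 and 39.4 CPM. Slc30a6 had means of 13.0, 11.7 and 17.0 CPM. Slc30a2, Slc30a8 and Slc30a10 had 0 counts in all libraries, which over the pooled libraries allows up to 0.0377 CPM (3 counts, counting error only), and Slc30a3 had 4 counts in all.

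Of the 13 other ZIP genes 9 passed the count filter between 3W- and mono-PSCs, of which Slc39a4 passed through its 3W libraries alone and is described without a test. Of the other 8 genes 1 was higher and 1 was lower, against 13.4% higher and 13% lower of all 11551 genes tested. Slc39a1 (ZIP1), a broadly expressed importer of the plasma membrane, rose. Its level was 54.3, 42.4, 44.1 and 45.0 CPM in mono-PSCs, with a mean of 46.4 ± 5.32 CPM (SD, n = 4), and 119, 115, 63.1 and 92.0 CPM in 3W-PSCs, with a mean of 97.2 ± 25.7 CPM (SD, n = 4). All 3W libraries were above all mono libraries, and the log2 fold change was 1.06 (SE 0.19, edgeR adjusted p = 0.00056). In a single fit of all 12 libraries this adjusted p was 0.0621. In 2W-PSCs the level of Slc39a1 was 58.4, 10.6, 77.5 and 53.8 CPM, with the low value in 2W replicate 2, and the log2 fold change between 3W- and 2W-PSCs was 0.95 (SE 0.44, edgeR adjusted p = 0.197). Without 2W replicate 2 it was 0.62 (SE 0.21, edgeR adjusted p = 0.0514).

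Slc39a4 (ZIP4), the importer of dietary zinc in the intestine, was at 0 counts in all 4 libraries of mono-PSCs. It had 0, 0, 4 and 1 counts in 2W-PSCs and 27, 36, 31 and 23 counts in 3W-PSCs, a mean of 3.67 ± 0.52 CPM (SD, n = 4). All 3W libraries were thus above all others at a level still lower than that of Slc30a1. Against 3 counts in each mono library, the level in 3W-PSCs was at least 7.28-fold higher. The gene passed the filter of its comparisons only because of its 3W counts, so no p is given. Macrophage marker sums also differed between 3W-PSCs and the other cultures without overlap, and the part of other cells in the Slc39a4 counts was not tested.

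Slc39a11 (ZIP11) fell between 3W- and mono-PSCs, with a log2 fold change of -0.63 (SE 0.22, edgeR adjusted p = 0.0416). Its level was 28.2, 52.9, 62.6 and 52.4 CPM in mono-PSCs and 29.6, 36.5, 25.1 and 36.1 CPM in 3W-PSCs, so the cultures overlapped through the mono library of replicate 1. The call ended when mono replicate 2, 3 or 4 or any 1 of the 4 libraries of 3W-PSCs was left out, with edgeR adjusted p-values of 0.0558 to 0.139, and in a single fit of all 12 libraries, at 0.164. The most abundant ZIP gene, Slc39a6, had means of 140, 152 and 124 CPM in mono-, 2W- and 3W-PSCs and was not called. Slc39a8 (ZIP8), the closest relative of Slc39a14, had means of 5.15, 7.09 and 8.12 CPM and a log2 fold change of 0.65 between 3W- and mono-PSCs (SE 0.30, 95% interval 0.019 to 1.27, edgeR adjusted p = 0.12). Slc39a9 had means of 29.1, 22.6 and 39.2 CPM and Slc39a10 of 18.9, 26.5 and 23.1 CPM. Slc39a3 had means of 23.0, 23.7 and 19.4 CPM and Slc39a13 of 30.7, 26.8 and 33.5 CPM, and none of these 4 genes was called in any comparison. Slc39a5 and Slc39a12 had 0 counts in all libraries and Slc39a2 had 7. Slc39a7 had at most 7 counts in a library, and 80.2% of its 75-base windows were shared with the overlapping gene Gm20427, so its level is uncertain.

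Between 2W- and mono-PSCs 8 other ZIP genes and 5 other ZnT genes were tested and edgeR's test called 0 of them, with 0 at an unadjusted p under 0.05 and 0 called by DESeq2, against 0.839% higher and 0.152% lower of all 11199 genes tested. Several 95% intervals of the log2 fold change were wide, and that of Slc30a6 (-0.12, SE 0.54) ran from -1.29 to 1.06 and that of Slc39a8 (0.47, SE 0.35) from -0.30 to 1.24. Between 3W- and 2W-PSCs, beside Slc39a4, edgeR and DESeq2 called 0 of the other 8 ZIP genes, with 1 at an unadjusted p under 0.05 (Slc39a11), against 5.73% higher and 4.95% lower of all 11513 genes tested. The median log2 fold change of the ZIP genes that passed the filter, Slc39a4 included where it passed, was 0.28 between 3W- and mono-PSCs, 0.11 between 2W- and mono-PSCs and 0.20 between 3W- and 2W-PSCs, and that of the ZnT genes tested was 0.38, -0.12 and 0.45.

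**Figure D4:**
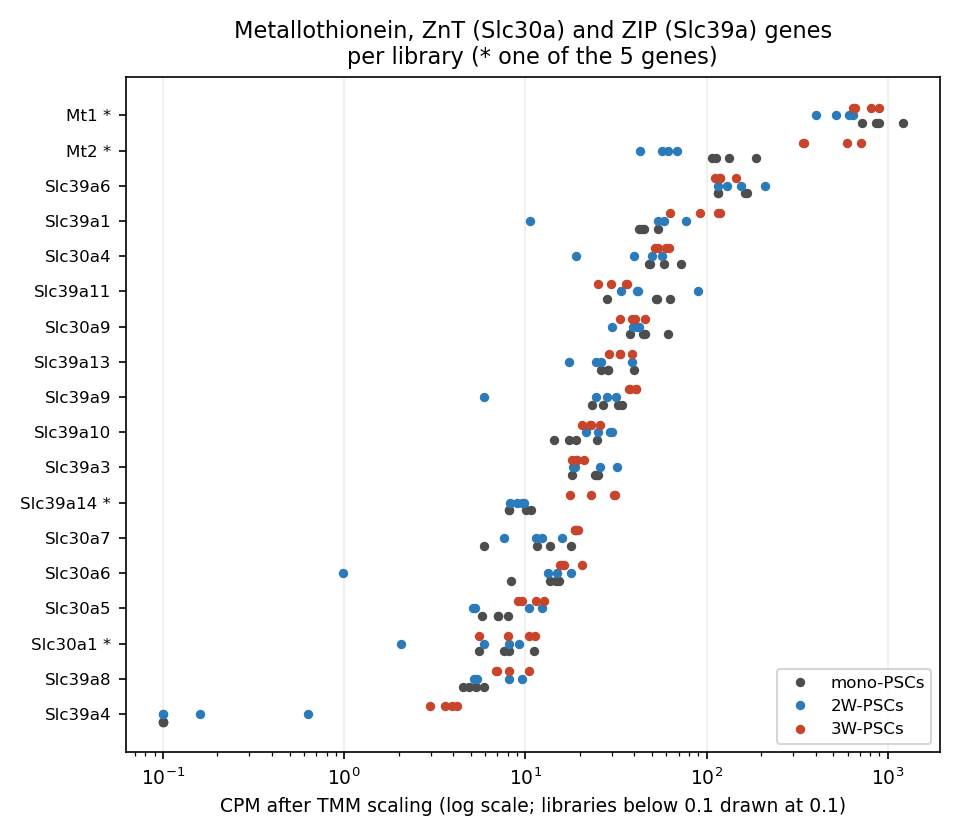
CPM after TMM scaling (log axis) of the metallothionein, ZnT and ZIP genes with a mean of at least 1 CPM in some culture, with 1 point per library, the cultures in separate rows and libraries under 0.1 CPM drawn at 0.1. Mt1 and Mt2 lie at the top, and Slc39a4 reaches 2.98 to 4.18 CPM in 3W-PSCs against 0 in mono-PSCs.

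Metallothioneins also bind copper, and of 12 genes of copper handling 11 were tested. Between 3W- and mono-PSCs 1 was higher and 1 was lower, near or below the 13.4% and 13% of all genes tested. Sod1, the copper- and zinc-containing superoxide dismutase of the cytosol, fell. Mono-PSCs had 1018, 1677, 1523 and 1328 CPM. The 2W libraries had 983, 1820, 1057 and 1244 CPM, and the 3W libraries, with 741, 733, 682 and 866 CPM, all lay below the others. Its log2 fold change was -0.88 (SE 0.17, edgeR adjusted p = 0.000991) between 3W- and mono-PSCs and -0.76 (SE 0.21, edgeR adjusted p = 0.0434) between 3W- and 2W-PSCs. The latter call ended when 2W replicate 4 or any 1 library of 3W-PSCs was left out, with edgeR adjusted p-values of 0.0827 to 0.137, and without 2W replicate 2 the log2 fold change was -0.54 (SE 0.14, edgeR adjusted p = 0.017). Of the 75-base windows of Sod1, 12.2% were shared with Gm8566. Cox17, which delivers copper to cytochrome c oxidase, rose between 3W- and mono-PSCs, with a log2 value of 1.01 (SE 0.34, edgeR adjusted p = 0.038). Its libraries were uneven, with 26.6, 5.15, 17.5 and 9.62 CPM in mono-PSCs and 38.5, 29.7, 23.7 and 27.1 CPM in 3W-PSCs. It shared 257 exonic bases with Gm21987, and its call ended without mono replicate 2, 3 or 4 or without 3W replicate 1, 2 or 4, with edgeR adjusted p-values of 0.0522 to 0.11, and in a single fit of all 12 libraries, at 0.287. The copper importer Slc31a1 had a log2 fold change of -0.18 (SE 0.15) and the exporter Atp7a of 0.61 (SE 0.25, edgeR adjusted p = 0.0853) in the same comparison. Between 2W- and mono-PSCs edgeR's test called 0 of the 11, with 0 at an unadjusted p under 0.05 and 0 called by DESeq2. Of all 11199 genes tested there, 0.839% were higher and 0.152% lower.

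**Figure D5:**
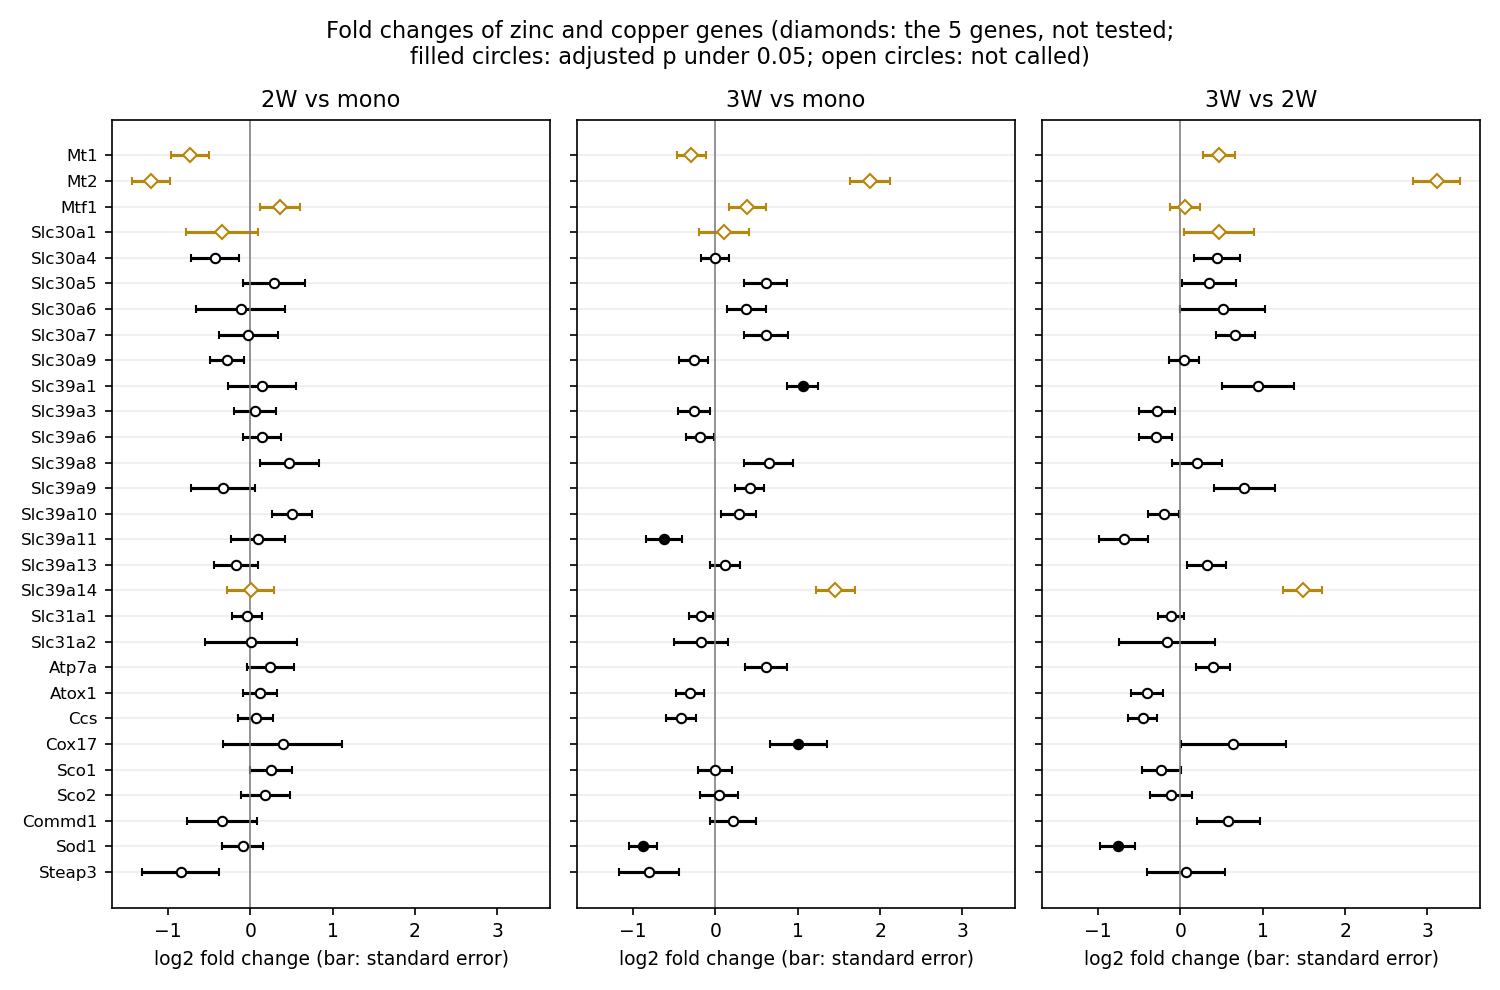
Log2 fold changes with standard errors in the 3 comparisons for the 5 genes (diamonds, not tested) and the other ZnT, ZIP and copper genes that were tested, with Slc39a4 left out for its 0 counts in mono-PSCs. Filled circles are called genes, of which there are 4 between 3W- and mono-PSCs (Slc39a1, Slc39a11, Cox17 and Sod1), 1 between 3W- and 2W-PSCs (Sod1) and none between 2W- and mono-PSCs.

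A list of 7 genes that MTF1 has been described to regulate, besides the 5, held Slc39a10 and Slc30a10, already counted with their families above. It was not split by the direction of regulation. Of the 7 genes 6 were tested, and edgeR called none of them higher in any comparison. For so few genes this is near the shares of 13.4%, 0.839% and 5.73% of all genes and is no result about the list. Between 3W- and mono-PSCs 0 were higher and 2 lower, Ndrg1 (log2 fold change -1.04, SE 0.15, edgeR adjusted p = 5.40e-05), a gene best known for its induction by hypoxia, and Csrp1 (-0.89, SE 0.20, edgeR adjusted p = 0.00344), a LIM-domain protein of muscle and fibroblasts. The shares of all genes called lower were 13%, 0.152% and 4.95% between 3W- and mono-PSCs, 2W- and mono-PSCs and 3W- and 2W-PSCs. The Csrp1 libraries of mono- and 3W-PSCs overlapped. Ndrg1 was also lower between 2W- and mono-PSCs (-1.06, SE 0.19, edgeR adjusted p = 0.0151, and -1.04 without 2W replicate 2), with 167 to 210 CPM in the mono libraries, 76.2 to 108 CPM in the 2W libraries and 78.4 to 99.5 CPM in the 3W libraries. Csrp1 was lower between 3W- and 2W-PSCs (-1.19, SE 0.26, edgeR adjusted p = 0.0158), and without 2W replicate 2 by -0.89 (edgeR adjusted p = 0.00217). DESeq2 called 0, 1 and 0 of the 6 higher between 3W- and mono-PSCs, 2W- and mono-PSCs and 3W- and 2W-PSCs. The 1 was Pgf, the gene of placental growth factor, for which edgeR gave a log2 fold change of 1.77 (SE 0.45, adjusted p = 0.112). Gclc, of glutathione synthesis, had log2 fold changes of 0.30 (SE 0.17), 0.077 (SE 0.20) and 0.25 (SE 0.19) in the same order, and was not called. Of 7 other zinc-binding or zinc-moving genes 4 were tested and edgeR's test called none in any comparison, with 1, 0 and 1 at an unadjusted p under 0.05 in the same order and 0 called by DESeq2. For 4 genes 0 calls is near the shares of all genes above and is no result about them. S100a8 and S100a9, whose products bind extracellular zinc in inflammation, had 0 counts in all libraries.

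Metallothionein genes are also known to respond to heat shock, glucocorticoids, oxidants and STAT3, so genes read as markers of these responses were set beside them. The shares of all genes to read their counts against are 13.4% higher and 13% lower between 3W- and mono-PSCs and 5.73% higher and 4.95% lower between 3W- and 2W-PSCs. Of 8 heat shock genes tested between 3W- and mono-PSCs 0 were higher and 1 was lower, Dnajb1 (log2 fold change -0.60, SE 0.18, edgeR adjusted p = 0.022), by edgeR as by DESeq2, and 3 had an unadjusted p under 0.05. Of 7 glucocorticoid response genes tested 3 were higher, Sgk1 (1.64), Klf9 (1.17) and Errfi1 (2.07), and 1 was lower, Tsc22d3 (-1.12), the gene of the glucocorticoid-induced leucine zipper, while Fkbp5 had a value of 0.65 (SE 0.27, edgeR adjusted p = 0.0831). Of 7 NRF2 response genes 1 was higher, the cystine transporter Slc7a11 (0.67, SE 0.21, edgeR adjusted p = 0.0276), and 1 was lower, Nqo1 (-1.03, SE 0.18, edgeR adjusted p = 0.00036), while Hmox1 had a value of 0.31 (SE 0.22, edgeR adjusted p = 0.326). Between 3W- and 2W-PSCs edgeR called 0 of the 8 heat shock genes. It called 1 glucocorticoid gene, Errfi1 (1.20, edgeR adjusted p = 0.0469), and 1 NRF2 gene, Slc7a11 (1.11, edgeR adjusted p = 0.0171), both higher. Unadjusted p-values under 0.05 were 1, 4 and 4 in these lists. DESeq2 called Errfi1, Slc7a11 and, lower, Osgin1. Without 2W replicate 2 edgeR also called Hspa1b (0.67) and Hmox1 (0.94) higher, and Tsc22d3 (-0.92), Dusp1 (-0.84), Nqo1 (-0.74) and Osgin1 (-1.12) lower. Of 7 STAT3 response genes, Lcn2 and Bcl3 passed the filter only where 3W-PSCs were compared and are left out of the count. In edgeR's test the other 5, Socs3, Stat3, Junb, Osmr and Il6st, were all higher between 3W- and mono-PSCs and between 3W- and 2W-PSCs. Socs3, the feedback inhibitor of the pathway, had log2 fold changes of 1.89 (SE 0.30, edgeR adjusted p = 0.000149) and 2.02 (SE 0.55, edgeR adjusted p = 0.0386) in these comparisons, with 1.65 (SE 0.23, edgeR adjusted p = 0.000182) in the latter without 2W replicate 2, and Stat3 of 1.79 (SE 0.17) and 1.78 (SE 0.19). DESeq2 called all 5 in the former comparison and, in the latter, all but Socs3. Of these genes the study had picked Osmr and Stat3 on the same libraries. It also named Mt2 there, among NF-kB target genes higher in 3W-PSCs. By RT-qPCR it reported more Mt2 in PSCs treated with recombinant oncostatin M. NF-kB target genes were not set beside Mt2 here. The heat shock, glucocorticoid, NRF2 and STAT3 lists were all chosen with earlier results of these data known. Their counts and p-values are therefore no independent test. Between 2W- and mono-PSCs, where Mt1 and Mt2 had negative fold changes, edgeR's test called 0 genes of the heat shock, glucocorticoid, NRF2 and STAT3 lists, with 0, 2, 1 and 1 at an unadjusted p under 0.05 and 0 called by DESeq2. Of all genes tested 0.839% were higher and 0.152% lower in that comparison. For so few genes 0 calls is near these shares and is no result about the lists.

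The genes whose profile over the 12 libraries was most like that of each gene, by Pearson's r of log2 CPM among 11771 genes, describe which libraries set its pattern. For Mt2 they were Angpt1 (r = 0.97), Pak3, Naa25, Steap2 and Fam46a (r = 0.93). Steap2, a metalloreductase that reduces iron and copper, had means of 55.9, 46.9 and 118 CPM in mono-, 2W- and 3W-PSCs, and Angpt1, the ligand of the endothelial receptor TIE2, had means of 1.93, 1.07 and 8.89 CPM. For Slc39a14 they were Hp (r = 0.97), Camp, Saa3, Gm19980 and Sod3 (r = 0.97). Hp and Saa3 encode the acute phase proteins haptoglobin and serum amyloid A3, and Sod3 the secreted copper- and zinc-containing superoxide dismutase. Saa3 had means of 2.87, 2.51 and 236 CPM, Hp of 0.26, 0.10 and 22.03 CPM and Sod3 of 13.4, 10.4 and 54.7 CPM. Camp had means of 0, 0 and 2.47 CPM and Gm19980 of 0, 0 and 3.59 CPM. The r of Camp and Gm19980 thus rests on 3W libraries set against libraries at 0, and that of Hp on 3W libraries set against libraries near 0. For Mt1 the likeness was looser, with Wdr41 (r = 0.89), Afap1l2, Anks6, Ehd1 and Cnih2 (r = 0.81). For Mtf1 they were Adamts2 (r = 0.96), Gtf3c2, Chst2, Tnnt2 and Cenpe (r = 0.88), and for Slc30a1 Hdgfrp2 (r = 0.92), Snx19, D3Ertd751e, Helq and Kif16b (r = 0.84). No gene stood in more than 1 of these 5 sets.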

How the data were processed

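RNA of sorted PSCs was measured in 12 libraries, 4 per culture, grouped by the labels. The authors made QuantSeq 3′ FWD libraries, used FastQC, trimming and STAR alignment to GRCm38, and summarised reads by gene in featureCounts with Ensembl genes. What was deposited are raw counts per gene, not normalised. The strand setting of the counting and molecular identifiers are not given in the sources used here, so counts may include PCR copies and limits cover counting error only. Each of the 12 columns carries a sample number that one title holds.

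The 5 genes and all gene lists were chosen with earlier results of these data known. Cultures were compared in pairs with edgeR 4.0.16 under R 4.3.3 (TMM, filterByExpr, glmQLFit, glmQLFTest, 8 libraries a fit, prior count 0.125, no block), with p-values adjusted over all genes tested. The labels speak of biological replicates, and p-values measure the spread between these libraries. CPM used TMM over 12 libraries, and for likeness a prior count of 2 was added before the log2. Named were the 5 genes, every metallothionein, ZnT and ZIP gene, called or defining genes of the lists, and the 5 genes most like each. Positions came from GENCODE annotation of GRCm38 and promoters from RefSeq (GRCm38.p6), with an entry for 4 of the 5 genes. Where all libraries of a culture were at 0, folds were set against 3 counts. Alternatives were DESeq2 1.42.0, its size factors, other count minimums, 1 fit of all libraries, a replicate block and leaving out each library. Same-numbered libraries of 2 cultures deviated from their culture means with an r of -0.048 to 0.338 over 12 pairs, of which 5 were over 0.1, so the numbers were not taken to pair libraries. Between mono- and 2W-PSCs the r of the same number was 0.338, 0.259, 0.211 and 0.099 for replicates 1 to 4. The mean r with the other numbers was -0.049, -0.147, -0.048 and -0.063. A pairing of these cultures is thus not excluded.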

Additional observations from a re-analysis of the deposited data

Results flagged for a closer look

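Slc39a11 in 2W replicate 2, at 89.2 CPM, lay far above the other 3 libraries of 2W-PSCs, at 33.8 to 41.7 CPM, and the gap made up 0.856 of the group's range, past Dixon's critical value for 4 values. It was the 1 of 30 groups of libraries that passed this limit, which chance alone passes in about 1 of 20 groups, and the same library stood apart from its group across all genes.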

How the results depend on the processing

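Under 15 alternatives for each of the 3 comparisons, all 225 log2 fold changes of the 5 genes stayed within 1 SD of the values given, and 11 changed sign, 9 of Slc39a14 between 2W- and mono-PSCs (-0.078 to 0.072) and 2 of Slc30a1 between 3W- and mono-PSCs (-0.041 to 0.31). The range was 1.66 to 2.07 for Mt2 between 3W- and mono-PSCs, -1.31 to -1.03 between 2W- and mono-PSCs and 2.89 to 3.26 between 3W- and 2W-PSCs. The number of other zinc and copper genes called between 3W- and mono-PSCs was 5, with Slc39a4, which passed the filter through 3W-PSCs alone, counted here and in the next comparison. It was 2 in 1 fit of all 12 libraries and 3 to 8 when 1 library was left out, with the 8 reached without mono replicate 1 and the 3 without mono replicate 2 or 3 or without 3W replicate 1, 2 or 4. Between 3W- and 2W-PSCs it was 2, and 1 with at least 10 counts in every library, 1 with the replicate block and 1 to 2 when 1 library was left out. Between 2W- and mono-PSCs it was 0 under every alternative run. Of the adjusted p-values of single called genes under alternatives 74 stayed under 0.05 and 22 did not, and none changed direction. The 74 include all 13 of Slc39a4 between 3W- and mono-PSCs and all 13 between 3W- and 2W-PSCs. As this gene passed the filter through 3W-PSCs alone, its values say nothing about how firm the calls are. Over all genes, calls between 2W- and mono-PSCs were 94 higher and 17 lower, 183 and 50 without 2W replicate 2 and 230 and 47 by DESeq2. Between 3W- and 2W-PSCs they were 660 and 570, 1098 and 1009 without that library, 903 and 885 by DESeq2 and 455 and 297 with the replicate block. Under the block the only zinc or copper call lost was that of Sod1 between 3W- and 2W-PSCs (adjusted p = 0.0791). The libraries of mono-PSCs correlated best with their own number in 2W-PSCs in 3 of 4 cases, in 3W-PSCs in 2 of 4, and those of 2W-PSCs in 3W-PSCs in 1 of 4. Low counts limit Slc30a1, with 13 to 93 per library, and Slc39a4. The causes were not tested.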
